A study of Mus musculus with 6 samples.

Results

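Polycomb repressive complex 2 (PRC2) was followed here through its subunits, probe set by probe set, in branchial arch 1 dissected from mice at embryonic day 11.5. Branchial arch 1 is the embryonic tissue from which the jaws form. The 10 genes are Ezh2, Ezh1, Eed, Suz12, Jarid2, Aebp2, Mtf2, Phf1, Phf19 and Epop. Every probe set whose single gene symbol in the platform annotation was one of these was taken, which gave 31 of the 45037 probe sets on the array after control probe sets were left out. All 10 genes were represented, of 18193 genes with a single-symbol probe set.

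The 3 arrays called labelled mutant below are from embryos of genotype Wnt1Cre Ezh2lox/lox, and the 3 called labelled control are from Ezh2lox/lox embryos without the Cre transgene. Both groups therefore carry conditional (lox) alleles of Ezh2. Mutants came from crosses of Wnt1cre Ezh2lox/wt with Ezh2lox/lox mice, and 1 arch per embryo gave total RNA for 1 array. The Wnt1 promoter drives Cre in the dorsal neural tube and the neural crest, so that the mesodermal core, the epithelium, the vessels and the blood of a mutant arch keep their Ezh2. The question was what the loss of Ezh2 from neural crest does to gene expression in the arch. Here it is put to PRC2 itself. In whole arches, fewer cells of a type and less RNA per cell cannot be told apart.

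PRC2 places methyl groups on histone H3 at lysine K27, a mark under which many developmental genes, Hox genes above all, stay silent. Ezh2 and its paralogue Ezh1 are alternative catalytic subunits, and Eed and Suz12 complete the core that makes them active. Accessory proteins divide the complex into a form with Jarid2 and Aebp2 and a form with a Polycomb-like protein (Mtf2, Phf1 or Phf19), which Epop can join. In crest-derived facial mesenchyme, PRC2 is known for keeping Hox genes silent so that jaw cartilage and bone can form.

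Levels are log2 signals, in which a difference of 1 is a doubling, and all differences are labelled mutant minus labelled control. Over all probe sets the signal ran from 2.63 to 14.68 with a median of 5.81, and a signal below the 25th percentile of 4.32 is called dim here. The groups keep the word labelled for a reason seen in PRC2 targets. Hoxa9 (1455626_at) read 3.82, 4.31 and 4.51 in the labelled-mutant arches, against 10.86, 11.57 and 11.42 in the labelled-control arches. Textbook knowledge places Hoxa9 silent in a first arch with intact PRC2, and the direction at this probe set, under the labels as given, is the reverse. Whether the labels are correct was not tested. A second Hoxa9 probe set (1421579_at) differed in the same direction but by less, -1.51. It read 6.30, 6.07 and 6.52 in the labelled-mutant arches, above the median of all probe sets, against 7.79, 7.87 and 7.78 in the labelled-control arches. All labelled-mutant arrays had high Xist and all labelled-control arrays high Kdm5d (1424903_at), a Y-linked gene. Embryo sex and label therefore cannot be told apart in any difference below. At 1452562_at and 1452563_a_at Kdm5d was dim on all 6 arrays. Of all probe sets 971 passed at a p of 0.05 in limma, adjusted after Benjamini and Hochberg (BH), which is 2.16%, with 169 higher (0.375%) and 802 lower (1.78%). Without labelled-control array 2 the number was 498, and without labelled-mutant array 2 or 3 it was 288 or 275.

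None of 13 listed arch mesenchyme genes was dim on all 6 arrays. Against a Hox-free first arch, the labelled-control arrays also had high Hoxa10 (1431475_a_at, 10.30, 10.66 and 10.74), Hoxc8 (1452412_at, 10.03, 9.46 and 9.44) and Hoxd13 (1440626_at, 8.69, 9.41 and 9.16). Second probe sets read much lower on these arrays, 4.52, 4.63 and 4.72 for Hoxa10 (1446408_at). For Hoxd13 (1422239_at) they read 5.16, 5.07 and 5.35, and that difference did not pass. Of 23 probe sets for the arch mesenchyme genes, 7 rose and 0 fell, where 0.375% of all probe sets rose and 1.78% fell. Of 14 for neuronal and glial genes 7 fell, and of 9 for muscle genes 2 fell, while none passed among erythroid, endothelial, macrophage and epithelial probe sets. Summed over each list's genes on the linear scale, arch mesenchyme signal was 19781 to 21787 in the labelled-mutant and 15066 to 17411 in the labelled-control arches. Neuronal and glial signal was 993 to 1198 in the labelled-mutant and 2409 to 2913 in the labelled-control arches. Muscle signal was 594 to 845 in the labelled-mutant and 1093 to 1260 in the labelled-control arches. Macrophage signal was 578 to 751 in the labelled-mutant and 809 to 968 in the labelled-control arches, also without overlap. Each gene entered these sums at its brightest probe set, and most of the macrophage sum came from Csf1r at 1419872_at. That probe set differed by -0.46 and did not pass (limma, BH-adjusted p = 0.125). At 1423593_a_at and 1419873_s_at Csf1r differed by 0.07 and -0.06. The sums of the erythroid, endothelial and epithelial lists overlapped between groups. In none of these lists did a gene measured lie below the 25th percentile on all 6 arrays. Their part in the differences below was not tested.

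Ezh2 and Ezh1 promoters are printed because their products are the alternative catalytic subunits and because their letters differ at a motif of the cell cycle. Each spans 250 bases before to 50 after the annotated start, from RefSeq on GRCm38.p6, and runs 5′ to 3′ on the gene's strand. Capitals mark an E2F-type motif, searched on both strands as TTTCCCGC, TTTCGCGC, TTTGCCGC or TTTGGCGC.
Ezh2 promoter, chr6:47594981-47595280, minus strand: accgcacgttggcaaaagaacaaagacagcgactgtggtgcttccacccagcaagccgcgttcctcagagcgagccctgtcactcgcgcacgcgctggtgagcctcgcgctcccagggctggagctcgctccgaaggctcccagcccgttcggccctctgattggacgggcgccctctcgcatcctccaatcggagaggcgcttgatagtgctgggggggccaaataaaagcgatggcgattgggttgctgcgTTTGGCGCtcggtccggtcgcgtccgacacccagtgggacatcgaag
Ezh1 promoter, chr11:101226414-101226713, minus strand: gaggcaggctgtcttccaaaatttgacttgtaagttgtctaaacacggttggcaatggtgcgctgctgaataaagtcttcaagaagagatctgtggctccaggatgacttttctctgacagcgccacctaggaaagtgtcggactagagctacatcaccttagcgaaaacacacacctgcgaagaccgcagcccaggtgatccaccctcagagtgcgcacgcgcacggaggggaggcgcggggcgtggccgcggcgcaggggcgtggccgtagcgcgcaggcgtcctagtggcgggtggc
The other members with a match were Suz12 and Phf19, of which the motif is shown with 20 bases on either side. In Phf19 it stands on the opposite strand, where GCGGGAAA reads TTTCCCGC.
Suz12, chr11:79992867-79992914, plus strand: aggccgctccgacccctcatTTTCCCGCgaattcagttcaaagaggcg
Phf19, chr2:34914157-34914204, minus strand: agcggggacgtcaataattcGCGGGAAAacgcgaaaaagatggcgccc

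RefSeq gave 13 promoters for 9 of the 10 genes. The E2F-type motif stood in 3 of the 13, those of Ezh2, Suz12 and Phf19, and in 2.26% of all 32851 promoters. In the Ezh2 promoter the motif lies just downstream of the annotated start and overlaps none of the 3 CCAAT boxes (CCAAT, both strands, in 37.4% of all promoters). The Ezh2 window holds 31 CpG dinucleotides and the Ezh1 window 23, where the median promoter holds 7. The Suz12 and Phf19 windows hold 41 and 38. Every form of the motif contains a CpG, and the share over all promoters was not matched for CpG content. E2F factors drive genes of S phase and are known to bind the EZH2 promoter in human cells. Of 48 probe sets for 18 proliferation genes, 0 passed with limma and 7 had an unadjusted p under 0.05, as 14.0% of all probe sets had. Without labelled-control array 3, 3 of the 48 passed. The largest statistics were those of Ccne1 (1416492_at, 0.37) and Ccnd2 (1434745_at, -0.37). A motif match describes letters in this window and nothing more.

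At the probe set of the targeted gene the arrays of both groups intermingled. Ezh2, the catalytic subunit that dominates in dividing cells, has a single probe set (1416544_at). It read 11.66, 11.66 and 11.65 in the labelled-mutant arches, against 11.80, 11.52 and 11.56 in the labelled-control arches. The labelled-mutant arrays thus lay within 0.01 of each other and inside the range of the labelled-control arrays. Its difference was 0.03 ± 0.09 (SE, limma, BH-adjusted p = 0.929), and the 95% confidence interval of -0.19 to 0.25 spans fold changes of 0.879 to 1.19. The signal was higher than that of the median probe set by a wide margin on every array. Where this probe set lies relative to the deleted exons is not given in the sources used here, and a probe set outside them reads the shortened transcript as well, so it checks neither label.

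**Figure D1:**
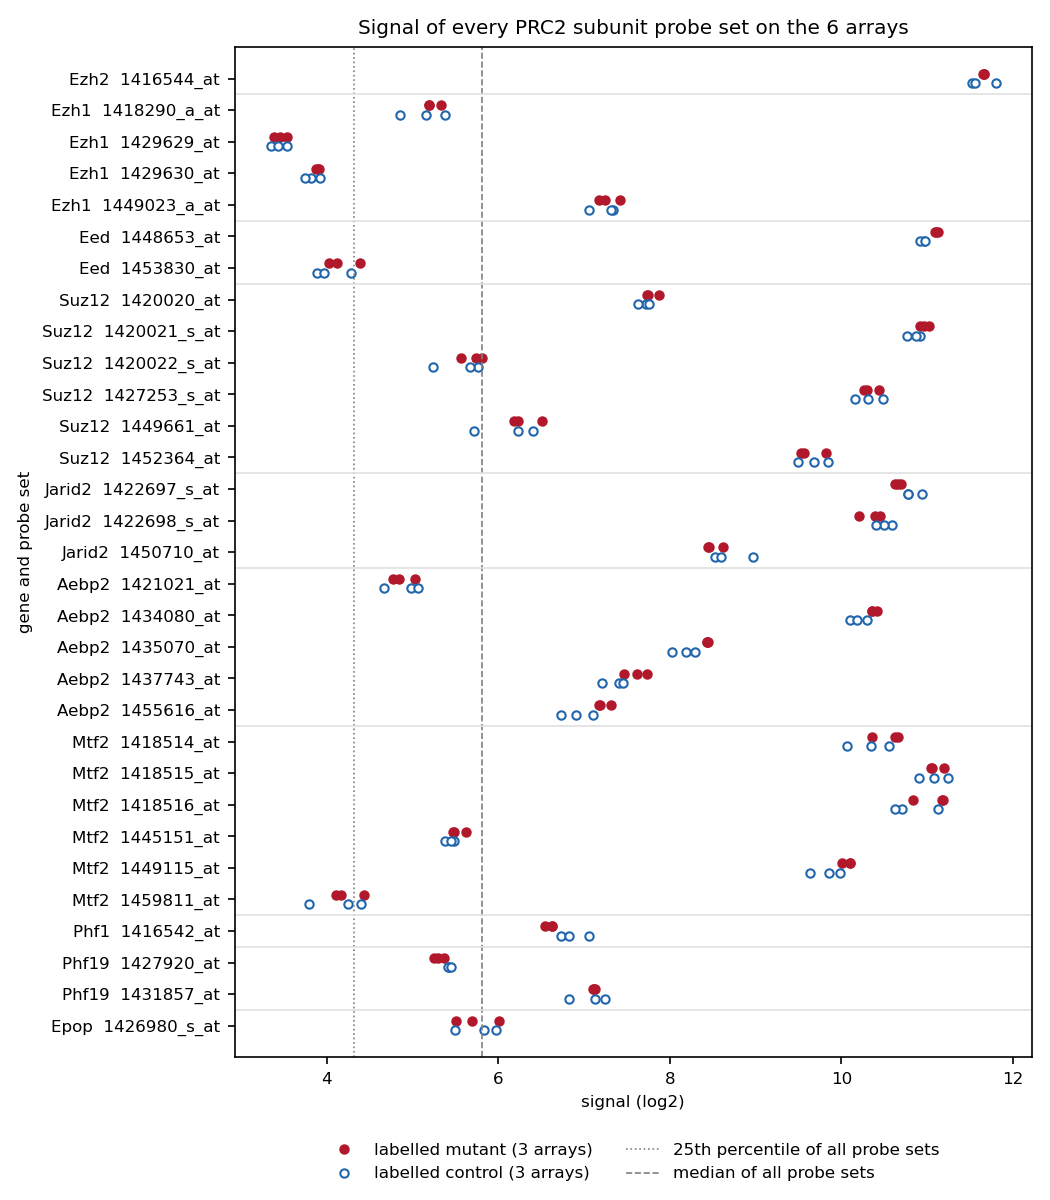
Log2 signal of all 31 probe sets of the 10 PRC2 genes, with filled points for the 3 labelled-mutant arrays and open points for the 3 labelled-control arrays; dotted and dashed lines mark the 25th percentile (4.32) and the median (5.81) of all probe sets. Most rows overlap between groups, and the Ezh2 points lie between 11.52 and 11.80.

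Ezh1, which methylates more weakly and prevails in resting cells, has 4 probe sets. The brightest (1449023_a_at) read 7.42, 7.25 and 7.17 in the labelled-mutant arches, against 7.34, 7.06 and 7.32 in the labelled-control arches, and the groups overlapped. Its difference was 0.04 with a 95% confidence interval of -0.21 to 0.29 (limma, BH-adjusted p = 0.913). The other 3 differed by 0.03 to 0.11. Of these, 1429629_at and 1429630_at were dim on all 6 arrays, where a difference of the transcript may not show. The upper confidence limits of its 4 probe sets reached at most 0.42.

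Eed, which binds the methyl mark and stimulates the enzyme, has a bright and a dim probe set. At the bright one (1448653_at) it read 11.09, 11.13 and 11.10 in the labelled-mutant arches, against 10.96, 10.92 and 10.98 in the labelled-control arches. All labelled-mutant arrays lay above all labelled-control arrays, yet the difference of 0.15 ± 0.07 (SE) did not pass (limma, BH-adjusted p = 0.396). The second Eed probe set (1453830_at) lay near the 25th percentile, with a difference of 0.13 and overlapping groups.

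Suz12, the scaffold of the core, has 6 probe sets, and its groups overlapped in each. The brightest (1420021_s_at) read 10.92, 10.96 and 11.02 in the labelled-mutant arches, against 10.92, 10.87 and 10.77 in the labelled-control arches. Its difference was 0.11 ± 0.08 (SE, limma, BH-adjusted p = 0.596). The 6 differences ran from -0.03 to 0.19, of which 5 were above 0. At 1427253_s_at Suz12 read 10.27, 10.44 and 10.30 in the labelled-mutant arches, against 10.31, 10.49 and 10.16 in the labelled-control arches. At 1452364_at it read 9.57, 9.82 and 9.53 in the labelled-mutant arches, against 9.68, 9.84 and 9.49 in the labelled-control arches. Array 2 of each group was its highest at both. Labelled-control array 3 had the lowest signal of the 6 arrays at 5 of these probe sets, such as 5.72 at 1449661_at where the other arrays read 6.19 to 6.51.

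Of the accessory pair Jarid2 and Aebp2, the differences of Jarid2 were all below 0, and those of Aebp2 were above 0 at 4 of its 5 probe sets. Jarid2, which recruits PRC2 to chromatin, read 10.70, 10.62 and 10.66 in the labelled-mutant arches at 1422697_s_at, against 10.78, 10.78 and 10.94 in the labelled-control arches. The groups did not overlap there, with a difference of -0.17 ± 0.08 (SE, limma, BH-adjusted p = 0.399). At 1450710_at Jarid2 read 8.46, 8.62 and 8.45 in the labelled-mutant arches, against 8.53, 8.60 and 8.97 in the labelled-control arches. The difference there was -0.19, and at 1422698_s_at it was -0.15, both with overlapping groups.

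Aebp2, a zinc-finger protein that stimulates PRC2, had the largest positive differences of the 10 genes. At 1455616_at it read 7.17, 7.19 and 7.31 in the labelled-mutant arches, against 7.10, 6.91 and 6.73 in the labelled-control arches, a difference of 0.31 ± 0.11 (SE). At 1435070_at the labelled-mutant arches read 8.43, 8.44 and 8.43, against 8.29, 8.03 and 8.19 in the labelled-control arches, a difference of 0.26 ± 0.09 (SE). Labelled-mutant arrays lay above labelled-control arrays at these 2 and also at 1434080_at (0.18) and 1437743_at (0.25). None passed, with limma, BH-adjusted p of 0.249 and 0.244 at the first 2, and 0.376 and 0.337 at the others. The fifth probe set (1421021_at), which was dimmer, differed by -0.03 and its groups overlapped.

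Among the Polycomb-like proteins, which bring PRC2 to CpG islands, Mtf2 has 6 probe sets with differences of 0.03 to 0.24. At 1449115_at it read 10.10, 10.01 and 10.10 in the labelled-mutant arches, against 9.98, 9.64 and 9.86 in the labelled-control arches. That difference of 0.24 ± 0.10 (SE) came without overlap and did not pass (limma, BH-adjusted p = 0.346). At the brightest probe set (1418515_at) the groups overlapped, with 11.20, 11.05 and 11.06 in the labelled-mutant arches, against 11.24, 10.91 and 11.08 in the labelled-control arches. The order of the arrays differed between probe sets of this gene. Labelled-control array 1 was the highest of the 6 at 1418515_at, whereas labelled-mutant array 3 was the highest at 1418516_at. That probe set read 10.84, 11.17 and 11.18 in the labelled-mutant arches, against 10.71, 11.13 and 10.63 in the labelled-control arches. At 1418514_at the readings were 10.36, 10.66 and 10.63 in the labelled-mutant arches, against 10.35, 10.56 and 10.07 in the labelled-control arches. Labelled-control array 3 was the lowest at both, and the groups overlapped, with differences of 0.24 and 0.22 that did not pass (limma, BH-adjusted p = 0.554 and 0.548).

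Phf1 had the largest negative difference of the 10 genes at its single probe set (1416542_at). It read 6.55, 6.63 and 6.63 in the labelled-mutant arches, against 6.73, 6.83 and 7.06 in the labelled-control arches. The groups did not overlap, and the difference of -0.27 ± 0.10 (SE) did not pass (limma, BH-adjusted p = 0.275). Phf19 differed by -0.12 at 1427920_at, where 5.25, 5.37 and 5.30 in the labelled-mutant arches stood against 5.43, 5.42 and 5.45 in the labelled-control arches without overlap, and by 0.06 at 1431857_at with overlap. Epop, which connects the complex with the transcription machinery, read 5.69, 6.01 and 5.51 in the labelled-mutant arches, against 5.50, 5.84 and 5.98 in the labelled-control arches, and the groups overlapped. Its probe set (1426980_s_at) is 1 of 6 here whose suffix _s_at marks probes that can match more than 1 transcript. The others are 1420021_s_at, 1420022_s_at and 1427253_s_at of Suz12, and 1422697_s_at and 1422698_s_at of Jarid2.

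Over all 31 probe sets, 0 passed with limma at a BH-adjusted p of 0.05, where 2.16% of all probe sets did, and the lowest adjusted p was 0.244. At an unadjusted p under 0.05 there were 5, of which 3 belonged to Aebp2, 1 to Mtf2 and 1 to Phf1. That is 16.1%, against 14.0% of all probe sets, and 4 were higher and 1 lower, where the shares among all probe sets were 7.06% and 6.92%. There were 2 without labelled-control array 3, labelled-mutant array 1 or labelled-mutant array 2, and 0 without labelled-mutant array 3. Groups did not overlap at 9 (29.0%), where 20.4% of all probe sets did not overlap. Of these, 6 lay above and 3 below the labelled-control arrays, with shares of 11.6% and 8.81% among all probe sets. The median difference was 0.08 for the members and 0.03 for all probe sets, and the members' differences ran from -0.27 to 0.31. Half-widths of their 95% confidence intervals were 0.17 to 0.42, and the widest limits, -0.50 for Phf1 and 0.60 for a Suz12 probe set, correspond to fold changes of 0.705 and 1.52.

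**Figure D2:**
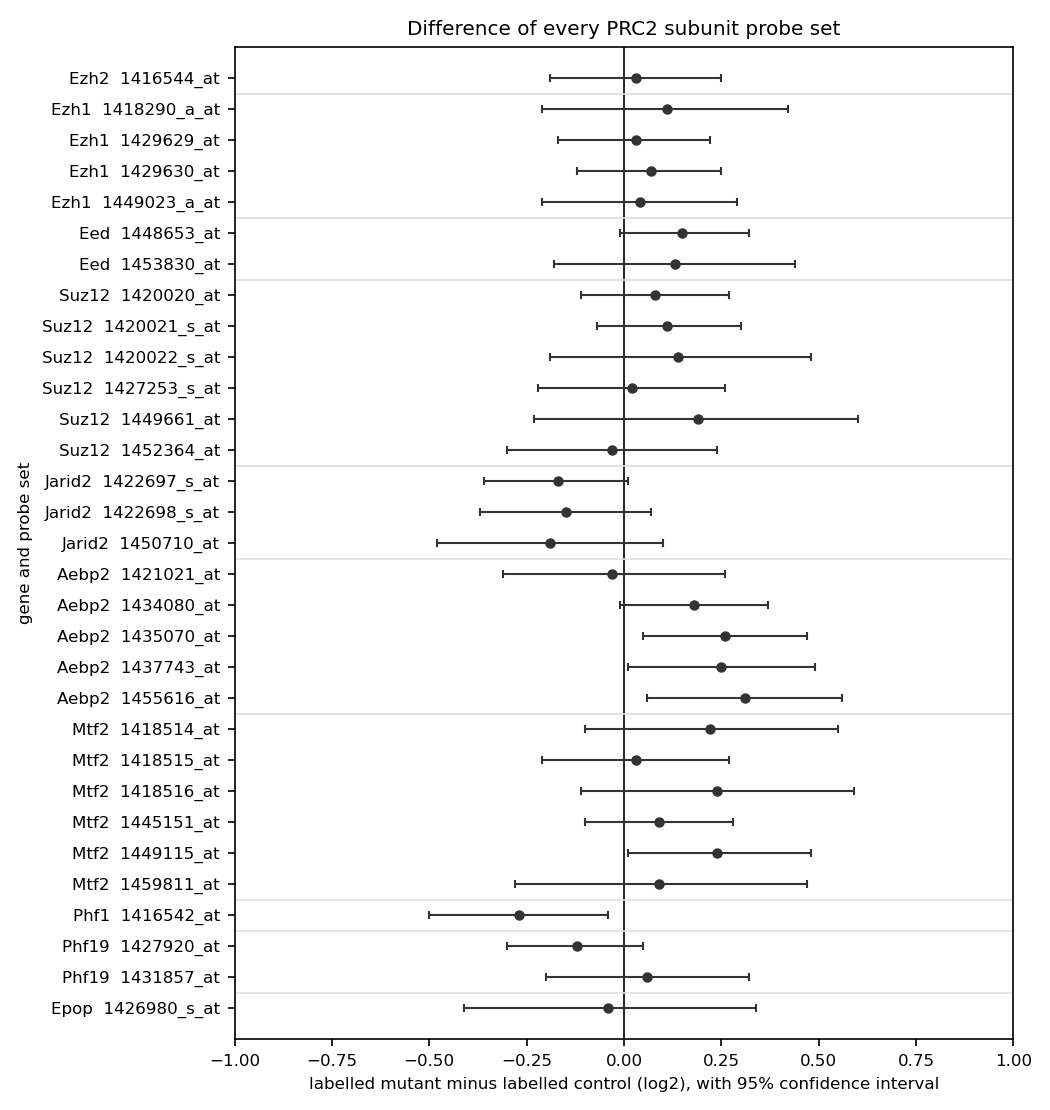
Log2 difference of each PRC2 probe set (labelled mutant minus labelled control), with bars for the 95% confidence interval of the limma fit over all probe sets. Points lie between -0.27 (Phf1) and 0.31 (Aebp2), and no bar reaches a doubling or a halving.

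Probe sets of one gene were also set against each other. For 7 genes with several probe sets, 21 comparisons of a probe set with the brightest of its gene were made within arrays. None of the 21 passed (limma, BH-adjusted over all 16752 such pairs, lowest adjusted p = 0.553), and 0 had an unadjusted p under 0.05. Among all pairs, 1.10% passed and 10.5% had an unadjusted p under 0.05. The differences between probe sets ran from -0.21 for Aebp2 to 0.22 for Mtf2, with confidence limits as wide as -0.59 and 0.72.

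The genes whose profile over the 6 arrays was nearest to that of Ezh2 were Itch, Uggt1, Seh1l, Stk24 and Vamp7. Nearness was the root mean square difference of log2 values, each gene centred on its own mean, among 8166 genes with at least the spread of Ezh2 and a mean above the median. It was 0.013 for Itch, a ubiquitin ligase gene, and 0.014 for Uggt1, which acts in protein folding. Like Ezh2, both were highest on labelled-control array 1. Itch read 10.26, 10.23 and 10.23 in the labelled-mutant arches, against 10.37, 10.08 and 10.15 in the labelled-control arches. With 6 arrays and so many genes such nearness is a description only.

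Rbbp4 and Rbbp7, histone-binding proteins that PRC2 shares with other complexes, did not pass at any probe set. Rbbp7 differed by -0.01 at both of its probe sets. Rbbp4 had 1 array far from the others. At 1454791_a_at it read 12.34, 12.27 and 12.47 in the labelled-mutant arches, against 12.39, 12.45 and 10.74 in the labelled-control arches, so that labelled-control array 3 lay 1.53 below the next. The same array lay 1.51 and 1.44 below the next at 1454875_a_at and 1456260_at, but only 0.03 below at 1434892_x_at. At the first 3 of these probe sets the differences were 0.50, 0.45 and 0.37 with all arrays (limma, BH-adjusted p = 0.659, 0.685 and 0.781), and -0.06, -0.09 and -0.22 without labelled-control array 3. That array was the lowest by at least 1 at 60 probe sets in all, where each other array was at 0 to 7.

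The remaining PRC2-associated genes listed were Lcor, Lcorl, Skida1 and Ezhip. With Rbbp4 and Rbbp7, 0 of the 19 probe sets of the 6 genes passed with limma, and 4 had an unadjusted p under 0.05, where the share of all probe sets was 14.0%. Skida1 (1457642_at) came nearest, with 8.10, 8.23 and 8.03 in the labelled-mutant arches, against 8.55, 8.52 and 8.52 in the labelled-control arches, and no overlap. Its difference was -0.41 (limma, BH-adjusted p = 0.0532), and it passed when only single-symbol probe sets were tested (adjusted p = 0.0442). A second Skida1 probe set (1430580_at) passed in 1 alternative, without labelled-control array 3, with a difference of -1.05 (adjusted p = 0.0452). Lcorl differed by 0.26 at 1433294_at without overlap (limma, BH-adjusted p = 0.221).

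**Figure D3:**
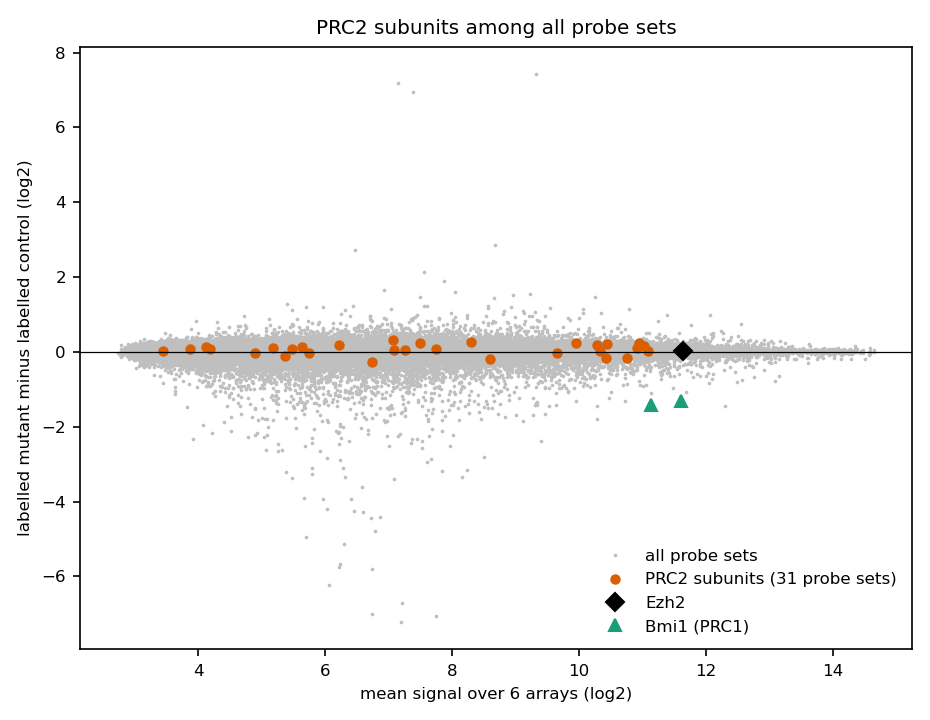
Difference (labelled mutant minus labelled control, log2) of every probe set against its mean log2 signal over the 6 arrays, with the 31 PRC2 probe sets, Ezh2 and the Bmi1 probe sets marked. The PRC2 probe sets lie between -0.27 and 0.31 at all signal levels, and both Bmi1 probe sets lie at -1.32 and -1.41.

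Polycomb repressive complex 1 (PRC1) binds the mark that PRC2 makes, and 1 of its subunits fell. Bmi1, a ring-finger partner of the ubiquitin ligase subunit, read 11.00, 10.78 and 11.06 in the labelled-mutant arches at 1417493_at, against 12.27, 12.26 and 12.26 in the labelled-control arches. At 1448733_at it read 10.38, 10.40 and 10.52 in the labelled-mutant arches, against 11.99, 11.88 and 11.66 in the labelled-control arches. The groups lay far apart, and Bmi1 fell by 1.32 and 1.41 (limma, BH-adjusted p = 6.37e-04 and 7.09e-04). Of 44 probe sets for 20 PRC1 genes, these 2 fell, where 1.78% of all probe sets did, and 0 rose. The other 42 did not pass, and the median difference over the 44 was 0.03. Label, embryo sex and the summed arch mesenchyme, neuronal, muscle and macrophage signals given above moved with Bmi1. Their part in its difference was not tested.

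In the listed demethylase family, which acts on the mark, Kdm6a and Uty passed. Kdm6a, an X-linked demethylase that escapes X inactivation, read 9.23, 9.18 and 9.20 in the labelled-mutant arches at 1427672_a_at, against 8.46, 8.66 and 8.73 in the labelled-control arches. It rose by 0.59 without overlap (limma, BH-adjusted p = 0.0188), and did not pass without any 1 of labelled-control array 2 or labelled-mutant arrays 1, 2 and 3 (adjusted p = 0.0578 to 0.102). A second Kdm6a probe set differed by 0.46 (1427235_at, limma, BH-adjusted p = 0.0591). Uty, its Y-linked relative, fell at all 4 probe sets, by 4.94 at 1426598_at. At 1457582_at this did not pass without labelled-control array 2 or labelled-mutant array 2 or 3, and at 1459565_at not without labelled-mutant array 2 (adjusted p = 0.0551 to 0.0713). Kdm6b, the autosomal demethylase, differed by -0.11 at its brightest probe set (1447612_x_at) and did not pass at any. In all, 1 of 11 probe sets rose, 4 fell and 6 did not pass, where 0.375% of all probe sets rose and 1.78% fell. Kdm6a and Uty differ in the direction of the sex pattern of the arrays, which cannot be told apart from the label.

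**Figure D4:**
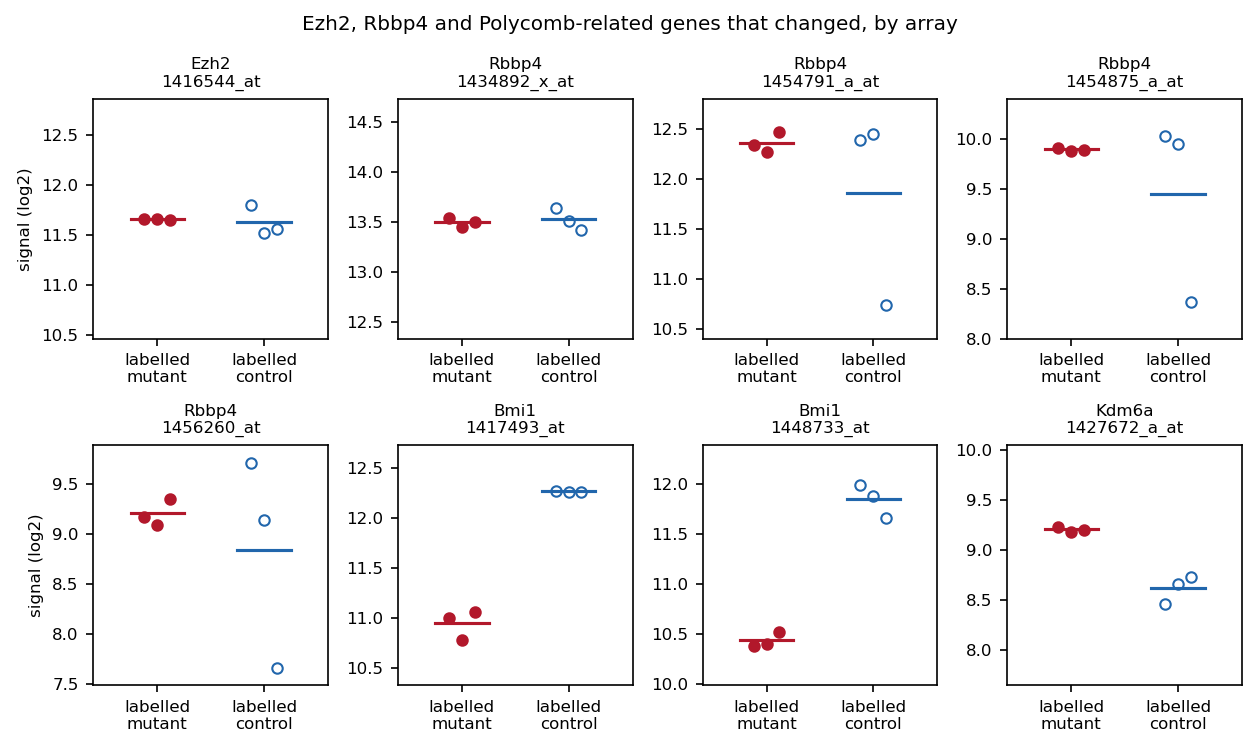
Log2 signal on each array (points) with group means (lines) for Ezh2, the 4 probe sets of Rbbp4, both probe sets of Bmi1 and Kdm6a at 1427672_a_at; each panel has its own range of the axis. Ezh2 overlaps between groups, 1 labelled-control array stands low at 3 Rbbp4 probe sets, and Bmi1 and Kdm6a do not overlap.

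Writers of opposing or neighbouring marks did not pass. Of 25 probe sets for 8 methyltransferase genes of the Kmt2, Nsd and Setd2 type, 0 passed with limma and 3 had an unadjusted p under 0.05 (14.0% of all probe sets). Nsd2 (1428827_at) and Nsd3 (1442085_at) had the largest test statistics, with differences of 0.30 each (BH-adjusted p = 0.115 and 0.280). At their brightest probe sets (1436036_at and 1447931_at) these genes differed by 0.30 and -0.05. Of 12 probe sets for Bap1 and the Asxl genes, which remove the PRC1 mark, 0 passed with limma and 1 had an unadjusted p under 0.05 (14.0% of all probe sets). Asxl2 (1458366_at) and Asxl3 (1442095_at) had the largest test statistics here, with differences of 0.23 and 0.31 (limma, BH-adjusted p = 0.276 and 0.464). At their brightest probe sets (1460597_at and 1435892_at) they differed by -0.05 and 0.15.

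Set beside these small differences, the listed targets of PRC2 differed strongly between the same arrays. The list was chosen with earlier results of these arrays known, so its direction is no independent evidence. It held Hoxa2, Hoxa9, Hoxa10, Hoxb3, Hoxc8, Hoxc10, Hoxd13, Cdkn2a, Cdkn2b and Zic1, and each of the 10 fell at 1 probe set or more. Of their 15 probe sets 14 fell, where 1.78% of all probe sets did, with a median difference of -3.94. Once every signal below an array's 20th percentile was raised to it, 9 fell. Cdkn2a, an inhibitor of the cell cycle, read 3.82, 3.96 and 3.57 in the labelled-mutant arches, against 7.32, 7.24 and 6.41 in the labelled-control arches, without overlap.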

How the data were processed

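Biotin-labelled total RNA, extracted with RNeasy per the labels' protocols, was measured on 6 single-colour arrays with Affymetrix probe set names. The deposited values are log2 signals, 1 per probe set and array, with a median of 5.81 over all probe sets and arrays. That the authors had brought all arrays to 1 common distribution was inferred from the values. The scale was inferred from the values, with summary method and software not given in the sources used here. Such normalization hides a general shift of all genes. Probe sets were named from the platform annotation, which can be old, and 34754 of 34945 single-symbol probe sets matched the GRCm38.p6 gene table by Entrez identifier.

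Differences were fitted with limma 3.58.1 (R 4.3.3; lmFit, eBayes, no covariate, two-sided, Benjamini-Hochberg over 45037 probe sets, threshold 0.05). The fit was first tested on simulated data. It recovered 17.2% of simulated log2 changes of 0.5, 84.3% of those of 1 and 97.2% of those of 2. Changes as small as the members' differences were not simulated, and most of them would be missed. Arrays correlated at 0.9925 to 0.9976 within and 0.9887 to 0.9924 between groups. Precision is limited by the number of arrays. Members, lists and tests were chosen with earlier results of these data known. Named were all member probe sets, listed genes that passed (otherwise the 2 with the largest statistic), Rbbp4, Rbbp7, Kdm6a, Kdm6b, Uty, and the 5 profiles nearest to Ezh2; Hoxa9, Cdkn2a and the promoters shown were picked as examples. The labels call the samples biological replicates, 1 arch per embryo. Alternatives were a replicate block, other normalizations, leaving out each array, limma's trend and robust settings, filters and floors on dim signals, and tests per gene.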

Additional observations from a re-analysis of the deposited data

How the results depend on the processing

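Of the 10 PRC2 genes no probe set passed under any of the 15 alternatives. Pairs of probe sets were fitted under the replicate block, each left-out array, the trend and robust settings, and the filter and floor on dim signals. No pair passed there, and under the other alternatives pairs were not fitted. Of 419 member values under the 15 alternatives, 393 kept their direction and 26 reversed. On leaving out 1 array, 162 of 186 values kept their direction and 24 reversed. Under the other alternatives 231 of 233 kept it and 2 reversed. The replicate block, trend and robust settings, filter on dim signals and choice of probe sets leave a difference as it is. Its direction could not reverse there, so the total is no measure of stability. Bmi1 passed under all 15. The replicate numbers do not pair the arrays (correlation of same-numbered deviations -0.18, -0.0295 and -0.151). With the replicate block 429 probe sets passed in place of 971, 53 of them higher in place of 169, and 3 in place of 5 for the demethylases, where Kdm6a (1427672_a_at, adjusted p = 0.0768) and Uty (1459565_at, 0.0584) did not pass. Flooring at the 20th percentile left 170 probe sets (57 higher), 2 for the demethylases and 9 of 14 for the PRC2 targets, with Kdm6a at an adjusted p of 0.0869 and the Mtf2 probe set 1459811_at at -0.00. The filter at the 25th percentile left 3 for the demethylases. With the brightest probe set per gene there were 2 genes for the demethylases, 1 for PRC1, 1 for the PRC2-associated genes (Skida1) and 4 sex-linked, in place of 10 probe sets. With the mean over a gene's probe sets there were 2, 1 and 4 for the demethylases, PRC1 and sex-linked genes, and 1 for proliferation. In that setting the gene mean took the opposite sign to the gene's brightest probe set for Phf19 (-0.03), Kdm6b (0.13) and Rbbp4 (0.32). Testing only single-symbol probe sets gave 1 PRC2-associated probe set. For these the cause was not tested, and tests per gene count genes in place of probe sets.

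Leaving out each array in turn gave 275 to 913 probe sets in all and 30 to 193 higher, with 78 without labelled-control array 2 and 98, 34 and 30 without labelled-mutant arrays 1, 2 and 3. It gave 2 to 5 for the demethylases, 2 for PRC1, 13 to 14 for the PRC2 targets, 0 to 1 for PRC2-associated genes, 0 to 3 for proliferation and 8 to 10 sex-linked. Ezh2 ran from -0.02 to 0.12. The other differences that changed sign ran from -0.15 to 0.05 and -0.17 to 0.08 for Aebp2 (1421021_at) and Epop, and from -0.03 to 0.23, -0.02 to 0.07 and -0.05 to 0.10 for Ezh1 (1418290_a_at, 1429629_at, 1449023_a_at). They ran from -0.06 to 0.11 and -0.08 to 0.22 for Mtf2 (1418515_at, 1459811_at), and from -0.06 to 0.14 for Phf19 (1431857_at). For Suz12 (1420022_s_at, 1427253_s_at, 1449661_at, 1452364_at) they ran from -0.01 to 0.25, -0.06 to 0.10, -0.01 to 0.33 and -0.12 to 0.06. For Rbbp4 (1434892_x_at, 1454791_a_at, 1454875_a_at, 1456260_at) they ran from -0.08 to 0.03, -0.06 to 0.79, -0.09 to 0.74 and -0.22 to 0.81. For Rbbp7 (1415775_at, 1456227_x_at) and Kdm6b (1442643_at) they ran from -0.03 to 0.02, -0.07 to 0.08 and -0.11 to 0.29. Signals below the 25th percentile limit what 2 Ezh1 probe sets can show.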

Other observations

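Labelled-control array 3, low at 3 of the 4 Rbbp4 probe sets, was the lowest of the 6 arrays by at least 1 (log2) at 60 probe sets and the highest by at least 1 at 16. Labelled-control array 2 was the highest by that margin at 23 probe sets and the lowest at 7. Each labelled-mutant array stood apart by that margin at 0 to 3 probe sets in either direction, and labelled-control array 1 at 0 to 3. The widest gap of labelled-control array 3 was 2.2 for Hnrnpab, an RNA-binding protein gene. Kdm6b at 1456610_at, which is no member of the complex, also read lowest there, with 9.66, 9.45 and 9.64 in the labelled-mutant arches, against 9.37, 9.51 and 8.70 in the labelled-control arches.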
